A study of Mus musculus with 4 samples.

Results

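Antiviral interferon-stimulated genes that lie outside the large interferon-induced families were followed in macrophages grown from the bone marrow of C57BL/6 mice, after knockdown of the transcription factor IRF2. The set has 40 genes, given by name and looked up in the deposited count table by Ensembl ID, out of 48795 genes in the table. All 40 were expressed enough to be tested among the 13495 genes that passed the filter on low counts. Cells of the IRF2 siRNA group received 50 nM of siRNAs against IRF2 and cells of the control siRNA group 50 nM of a control siRNA, with 2 libraries each. In both groups the macrophages had been cultured over 5 days in 50 ng/ml of M-CSF, the macrophage growth factor, with 10% serum, and RNA was collected 48 h after transfection. An siRNA lowers the matching mRNA for some days and does not delete the gene. The labels name no stimulation with interferon or a virus, and they leave unsaid if the replicates are separate cultures or animals. The p-values therefore cover the spread between these libraries alone, which may be technical.

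Interferon-stimulated genes are switched on when type I interferon binds its receptor and signalling from there brings transcription factors to response elements in their promoters. Macrophages hold many of them at a low level without infection. IRF2 binds the same kind of element and is best known for repressing transcription from it, while at some promoters it activates. The proteins they encode act at many steps of infection: some sense viral RNA, some attach the ubiquitin-like protein ISG15 to other proteins, and some block entry, replication or release of virus.

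Irf2 mRNA was at 56.0 and 56.1 CPM (counts scaled to library size, with TMM factors) in the IRF2 siRNA libraries, against 164 and 152 CPM in the control siRNA libraries. It fell, with a log2 fold change of −1.49 ± 0.11 (standard error) and, in the edgeR quasi-likelihood test, an adjusted p = 0.00477. Reads in genes numbered 26378584 to 32273565 per library. None of 8 macrophage markers passed the test, and Adgre1, Csf1r and Cd68 had log2 fold changes of −0.07, 0.11 and −0.02. Cd14, of the same list, had 396 and 377 CPM with IRF2 siRNA, against 595 and 508 CPM with control siRNA. Its log2 fold change was −0.51, with an adjusted p = 0.131 in edgeR. In 10 lists of other cell types, no marker that was tested passed either, but many had too few reads to be tested. No marker of NK cells, of mast cells and basophils or of erythroid cells was tested. Of the T cell and B cell markers 1 each was tested, and of the 6 for plasmacytoid dendritic cells 2 were. In the list for plasmacytoid dendritic cells, a main source of type I interferon, Siglech had 4 and 3 reads in the IRF2 siRNA libraries and 6 and 1 reads in the control libraries, and the list's sum of 230.1 and 257 CPM with IRF2 siRNA, against 261 and 283 CPM with control siRNA, was nearly all Tcf4. In bulk RNA, fewer cells of a type and less RNA per cell cannot be told apart.

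The members' log2 fold changes lay on both sides of 0, and only rises passed the test in the comparison of all 4 libraries. Tmem140, Rsad2, Cmpk2, Zbp1, Trim21, Uba7 and Isg15 rose, with log2 fold changes between 0.93 and 1.63. Those 7 are 17.5% of the 40 members, whereas 0.511% of all genes tested rose and 1.79% were called in either direction. No member fell by this test, and 1.27% of all genes tested did. At an unadjusted p under 0.05, 10 members were higher and 10 were lower, beside 3.61% and 7.33% of all genes. DESeq2 called 9 members higher and 4 lower, beside 0.889% and 2.27% of all genes. Limma-voom called 7 and 0, beside 0.504% and 1.18% of all genes. The median log2 fold change of the members was −0.05, beside −0.0015 for all genes, yet the median size without regard to sign was 0.36, against 0.14 for all genes.

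Counted by library rather than by test, 16 members had both IRF2 siRNA libraries above both control libraries, 13 had both below, and 11 overlapped. Among all genes tested, 19.0% lay above and 19.4% lay below in this sense. The plot of log2 fold changes shows a stretch from Tmem140 at the top to Helz2 at the bottom with no gap between the members above and below 0. A gap is seen higher up, between Herc6 at 0.84 and Xaf1 at 0.50. Herc6 lay just outside the threshold, with an adjusted p = 0.0529 in edgeR, and Isg15 just inside, with 0.0244.

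**Figure D1:**
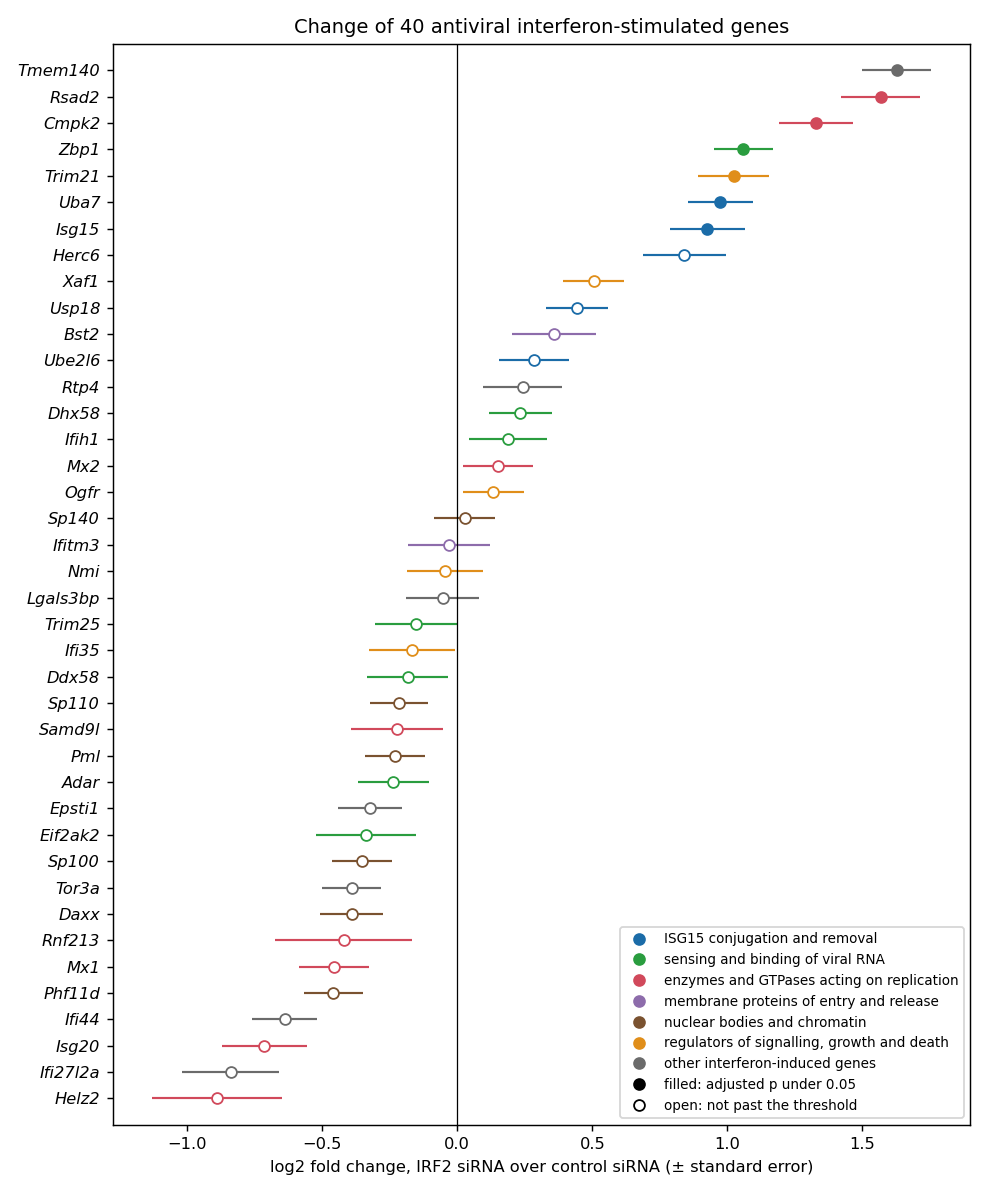
Log2 fold change (IRF2 siRNA over control siRNA, horizontal axis) of the 40 genes, 1 per line, with bars of 1 standard error and colours for role groups. Filled points are the 7 genes with an adjusted p under 0.05, all on the right, and the lowest value is −0.89 for Helz2.

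The promoters of the members that rose are shown because IRF2 binds interferon response elements. Set beside the others are 2 windows without an exact match to the core that was searched for. RefSeq windows on GRCm38.p6, from 250 bases before to 50 bases after a transcription start, were found for 32 of the 40 members. They were searched on both strands for the core of the interferon-stimulated response element, which is GAAA, then any 2 bases, then GAAA again. Among the members that rose, 4 of the 6 with a window held it, and among those not called 6 of 26 did, beside 3.99% of all 27025 genes with a window. Each window below runs 5′ to 3′ on the gene's own strand, and capitals mark every match, on either strand.
Tmem140, chr6:34862896-34863195, plus strand: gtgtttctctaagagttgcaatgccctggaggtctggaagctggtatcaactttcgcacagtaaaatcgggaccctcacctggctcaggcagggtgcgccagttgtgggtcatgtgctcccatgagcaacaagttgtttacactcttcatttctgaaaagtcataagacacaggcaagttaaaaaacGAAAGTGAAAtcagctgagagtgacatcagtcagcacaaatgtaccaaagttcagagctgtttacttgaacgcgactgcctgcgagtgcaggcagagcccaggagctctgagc
Rsad2, chr12:26456403-26456702, minus strand: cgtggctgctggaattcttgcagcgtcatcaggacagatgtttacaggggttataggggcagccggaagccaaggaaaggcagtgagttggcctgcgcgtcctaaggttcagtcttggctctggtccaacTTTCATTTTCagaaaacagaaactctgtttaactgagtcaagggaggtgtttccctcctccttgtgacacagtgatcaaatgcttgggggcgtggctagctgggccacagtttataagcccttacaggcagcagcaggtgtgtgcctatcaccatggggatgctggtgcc
Trim21, chr7:102565433-102565732, minus strand: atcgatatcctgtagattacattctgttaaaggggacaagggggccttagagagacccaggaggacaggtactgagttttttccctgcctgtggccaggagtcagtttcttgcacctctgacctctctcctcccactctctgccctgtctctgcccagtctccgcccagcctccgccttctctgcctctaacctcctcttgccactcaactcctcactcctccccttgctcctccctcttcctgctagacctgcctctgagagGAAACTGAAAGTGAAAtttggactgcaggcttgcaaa
Isg15, chr4:156200769-156201068, minus strand: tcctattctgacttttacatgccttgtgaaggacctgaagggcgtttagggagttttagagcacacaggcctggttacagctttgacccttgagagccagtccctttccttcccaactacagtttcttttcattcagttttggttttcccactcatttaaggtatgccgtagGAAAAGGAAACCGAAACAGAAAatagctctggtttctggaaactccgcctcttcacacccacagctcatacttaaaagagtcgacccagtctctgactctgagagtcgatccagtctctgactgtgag
Cmpk2, chr12:26468965-26469264, plus strand: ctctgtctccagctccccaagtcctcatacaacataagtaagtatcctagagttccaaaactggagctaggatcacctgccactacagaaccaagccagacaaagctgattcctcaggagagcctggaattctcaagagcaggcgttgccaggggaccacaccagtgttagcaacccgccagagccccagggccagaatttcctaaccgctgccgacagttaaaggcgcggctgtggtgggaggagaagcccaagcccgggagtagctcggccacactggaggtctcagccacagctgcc
Uba7, chr9:107975317-107975616, plus strand: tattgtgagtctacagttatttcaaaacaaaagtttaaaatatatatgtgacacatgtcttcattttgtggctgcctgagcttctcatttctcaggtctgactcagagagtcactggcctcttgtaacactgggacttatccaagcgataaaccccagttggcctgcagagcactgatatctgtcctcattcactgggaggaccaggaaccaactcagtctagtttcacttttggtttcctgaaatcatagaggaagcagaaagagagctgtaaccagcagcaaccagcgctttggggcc
Isg15 held 3 overlapping matches, from base −78 to base −57, counted back from the start. Trim21 held 2 overlapping ones that lie after the start, from base 14 to base 29, the start being base 1. The single match of Tmem140 began at base −63, and that of Rsad2 lay on the opposite strand from base −120 to base −111. No match was found in the windows of Cmpk2 and Uba7. The search allowed no mismatch, so a near match such as TTTCACTTTT in the Uba7 window was not marked. TTCNNNGAA, the palindrome that STAT dimers bind, was in none of the 6 windows of members that rose and in 6 of the 26 of members not called, beside 9.55% of all genes with a window. In Bst2 and Ifitm3 it overlaps a match of the response element core. Bst2, Ddx58, Eif2ak2, Ifih1, Ifitm3 and Ogfr were the members not called that held the response element core. Among members not called with a window, they were 3 of 7 with a log2 fold change above 0 and 3 of 19 below 0. A match is a run of letters and not a measured binding site.

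Of the 5 genes of ISG15 conjugation and removal, Isg15 and Uba7 rose and the other 3 did not pass. Isg15, the ubiquitin-like modifier, had 113 and 103 CPM with IRF2 siRNA, against 62.2 and 51.2 CPM with control siRNA. Uba7, the E1 enzyme that activates ISG15, had 444 and 434 CPM with IRF2 siRNA and 209 and 238 CPM with control siRNA. For both genes the libraries of the groups were well apart, with log2 fold changes of 0.93 ± 0.14 and 0.97 ± 0.12 (standard error) and adjusted p-values in edgeR of 0.0244 and 0.0141. Herc6, the main ligase that attaches ISG15 in mice, had 126 and 142 CPM with IRF2 siRNA, against 65.3 and 83.9 CPM with control siRNA. Its log2 fold change was 0.84 ± 0.15, near those of Isg15 and Uba7, without passing over all genes. Usp18, the protease that removes ISG15 and also restrains the interferon receptor, had 71.7 and 66.0 CPM with IRF2 siRNA and 51.8 and 49.4 CPM with control siRNA. Ube2l6, the E2 enzyme between Uba7 and Herc6, had 155 and 143 CPM with IRF2 siRNA, against 133 and 112 CPM with control siRNA. All 5 genes had both IRF2 siRNA libraries above both controls, as did 19.0% of all genes tested, and the log2 fold changes of Usp18 and Ube2l6, at 0.44 and 0.28, were smaller than those of the other 3. Exons of Uba7, Herc6 and Usp18 overlap Gm20661, Gm45193 and Gm44148. The first 2 of these had at most 9 reads in any library.

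Of the 7 genes that sense or bind viral RNA, Zbp1 rose and none of the others passed. Zbp1, a sensor of Z-form nucleic acid that can start necroptosis, lies on the minus strand of chromosome 2 at 173206612 to 173218923 (mm10) and had 437 and 443 CPM with IRF2 siRNA, against 207 and 216 CPM with control siRNA. The level was 2.08-fold higher, with replicates close together in both groups, a log2 fold change of 1.06 ± 0.11 and an adjusted p = 0.00919. in edgeR The RIG-I-like receptors, helicases that recognise viral RNA in the cytoplasm, had smaller values. Ifih1, which encodes MDA5, had a log2 fold change of 0.19, and Dhx58, which encodes the regulator LGP2, had 0.23. Ddx58, which encodes RIG-I itself, had 306 and 343 CPM with IRF2 siRNA and 324 and 413 CPM with control siRNA, so that its groups overlapped. Its log2 fold change was −0.18, beside −0.15 for Trim25, a ubiquitin ligase that acts on RIG-I. The kinase gene Eif2ak2, whose product PKR stops translation when it binds double-stranded RNA, had −0.34, and the RNA editing enzyme Adar had −0.24. All 7 genes, Zbp1 included, were lower in control replicate 1 than in control replicate 2. The overlapping exons of Dhx58 with Dhx58os, of Eif2ak2 with Gm26637 and of Adar with Chrnb2 leave those values uncertain, since use of strand in counting is not given in the sources used here.

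Enzymes and GTPases that act on viral replication held a pair of the largest rises and also the lowest value of the whole set. Rsad2, which encodes viperin, an enzyme that makes a chain-terminating nucleotide, had 609 and 662 CPM with IRF2 siRNA, against 191 and 238 CPM with control siRNA. Cmpk2, a mitochondrial nucleotide kinase, had 249.9 and 259 CPM with IRF2 siRNA and 90.8 and 112 CPM with control siRNA. These genes are neighbours on chromosome 12, transcribed away from each other from starts 12752 bases apart, and their log2 fold changes were 1.57 ± 0.15 and 1.33 ± 0.14, with adjusted p-values in edgeR of 0.00723 and 0.00919. Their levels were 2.96-fold and 2.51-fold higher, and of the 40 members only Tmem140 had a larger fold change.

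The other 6 genes of that group did not pass. Helz2, a helicase and transcriptional coactivator, had 77.4 and 87.4 CPM with IRF2 siRNA, against 113 and 193 CPM with control siRNA. The controls differed more from each other than the nearer control did from the IRF2 siRNA libraries, and the log2 fold change of −0.89 had a standard error of 0.24 and an adjusted p = 0.17. in edgeR Isg20, an exonuclease of single-stranded RNA, had 15.1 and 14.8 CPM with IRF2 siRNA and 27.5 and 21.6 CPM with control siRNA. Its log2 fold change was −0.71 ± 0.16, with an adjusted p = 0.0952. in edgeR Rnf213, a giant ubiquitin ligase, had 530.4 and 636 CPM with IRF2 siRNA, against 568 and 994 CPM with control siRNA. Its groups overlapped and its value rested on control replicate 2: the log2 fold change was −0.42 with all libraries and 0.04 without that one. Samd9l, known to restrict poxviruses, had −0.22 and also overlapped. Mx1 and Mx2, dynamin-like GTPases, are neighbours on chromosome 16, and the Mx1 allele of C57BL/6 mice carries a deletion and makes no working protein. Mx1 had 133 and 143 CPM with IRF2 siRNA and 173 and 207 CPM with control siRNA, a log2 fold change of −0.46, while Mx2 had 0.15. The pair therefore lay on different sides of 0, with adjusted p-values in edgeR of 0.198 and 0.836.

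**Figure D2:**
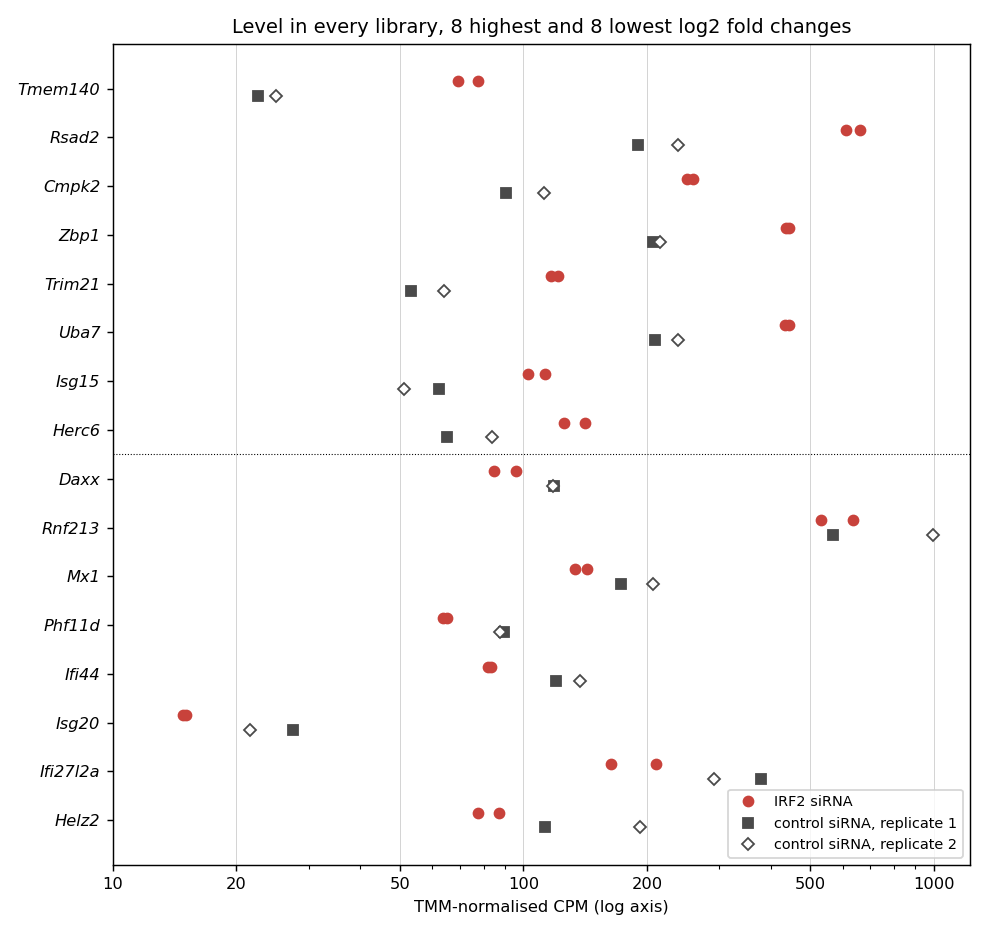
TMM-normalised CPM (horizontal log axis) in each of the 4 libraries for the 8 genes with the highest and the 8 with the lowest log2 fold changes, with IRF2 siRNA points above control points on each line. Every gene of the upper block has both IRF2 siRNA libraries to the right of both controls, and in the lower block all but Rnf213 have both to the left.

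Genes of nuclear bodies and chromatin were mostly on the other side, and none of the 6 passed. Daxx, a histone chaperone of PML bodies, had 96.0 and 84.7 CPM with IRF2 siRNA, against 119 and 118 CPM with control siRNA. Phf11d, a PHD finger gene, had 63.5 and 65.2 CPM with IRF2 siRNA and 89.5 and 87.5 CPM with control siRNA. Neither gene's groups overlapped, and their log2 fold changes were −0.39 ± 0.12 and −0.46 ± 0.11, with adjusted p-values in edgeR of 0.227 and 0.119. Pml, the scaffold of these bodies, had −0.23. The speckled-protein genes Sp110, Sp140 and Sp100 lie side by side on chromosome 1 and had −0.22, 0.03 and −0.35, so that the 3 neighbours did not share a value. In 5 of the 6 genes, Sp140 being the exception, both IRF2 siRNA libraries were below both controls, as in 19.4% of all genes tested. Phf11a, a paralog of Phf11d, did fall, to 8.08 and 7.71 CPM with IRF2 siRNA, against 19.1 and 17.1 CPM with control siRNA, with an adjusted p = 0.0141. in edgeR Phf11b and Phf11c had log2 fold changes of −0.27 and −0.12. Reads that fit several of these similar genes were not counted, and exons of Sp100, Sp110, Sp140 and Pml overlap other genes.

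The membrane proteins gave no call. Ifitm3, which blocks fusion of virus in endosomes, had 994 and 852 CPM with IRF2 siRNA, against 1044 and 842 CPM with control siRNA, which overlapped almost fully. Its paralogs Ifitm1, Ifitm2 and Ifitm6 had log2 fold changes of 0.02, −0.49 and 0.12, none past the test. Bst2, which encodes tetherin and holds budding virus on the cell, had 489 and 407 CPM with IRF2 siRNA and 388 and 311 CPM with control siRNA. For Bst2 the lower IRF2 siRNA library lay close to the higher control, and the log2 fold change of 0.36 had an adjusted p = 0.473 in edgeR.

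Among 5 regulators of signalling, growth and death, Trim21 rose. Trim21, a cytosolic antibody receptor and ubiquitin ligase, had 117 and 121 CPM with IRF2 siRNA, against 53.2 and 64.1 CPM with control siRNA. Its log2 fold change was 1.02 ± 0.13, with an adjusted p = 0.0155. in edgeR Xaf1, which binds the apoptosis inhibitor XIAP, had 190.3 and 186 CPM with IRF2 siRNA and 139 and 126 CPM with control siRNA. The groups were apart, but the log2 fold change of 0.50 had an adjusted p = 0.103. in edgeR Nmi and Ifi35, whose proteins bind each other, had −0.05 and −0.17, and Ogfr, an opioid growth factor receptor, had 0.13.

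Of the 7 remaining interferon-induced genes, Tmem140 rose and no other passed. Tmem140, a membrane protein, had 69.3 and 77.5 CPM with IRF2 siRNA, against 22.6 and 24.9 CPM with control siRNA. It was 3.09-fold higher, the largest fold change of the 40, with an adjusted p = 0.00577. in edgeR Its exons overlap those of Cyren on the opposite strand, and Cyren had 14.6 and 14.4 CPM with IRF2 siRNA and 7.1 and 6.24 CPM with control siRNA. Both genes were called higher. Reads that the counting set apart as ambiguous between genes made up 4.17% to 4.71% of the column totals. Without strand information it is not known if reads of the overlap were among them. Ifi27l2a, a small protein of the ISG12 family, had 211 and 164 CPM with IRF2 siRNA, against 379.6 and 291 CPM with control siRNA. Ifi44, an interferon-induced cytoplasmic protein, had 81.7 and 83.5 CPM with IRF2 siRNA and 120 and 137 CPM with control siRNA. Both genes had IRF2 siRNA libraries well below the controls, with log2 fold changes of −0.84 ± 0.18 and −0.64 ± 0.12, yet adjusted p-values in edgeR of 0.0848 and 0.0587. Tor3a, a torsin ATPase, had −0.39, Epsti1 had −0.32, Lgals3bp, a secreted binding partner of galectin-3, had −0.05, and Rtp4 had 0.24.

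How many of the lower members were called depended on the control libraries. Without control replicate 1, 13 members were higher and 13 lower, while 2.80% and 7.39% of all genes tested were. Without control replicate 2, 11 were higher and 9 lower, beside 5.14% and 7.67% of all genes. In these fits a group of 1 library is assumed to vary like the other group. Daxx, Helz2, Ifi27l2a, Ifi44, Isg20, Phf11d and Tor3a were the 7 members called lower in both, and the 10 called higher in both were the 7 that rose with all libraries plus Herc6, Usp18 and Xaf1. Without IRF2 siRNA replicate 1, 8 members were higher and Ifi27l2a was lower, beside 0.473% and 1.21% of all genes. Without IRF2 siRNA replicate 2, 7 were higher and Helz2 was lower, beside 0.436% and 1.23% of all genes. All 7 rises passed in each of the 4 fits that left out a library.

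**Figure D3:**
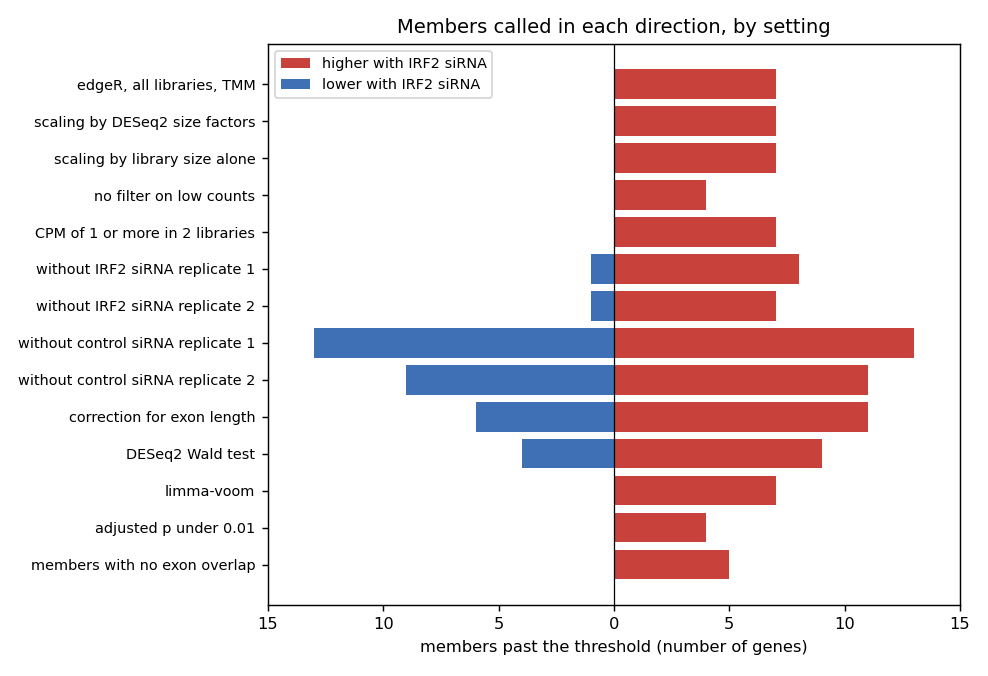
Number of members past the threshold (bars from 0, higher with IRF2 siRNA to the right, lower to the left) in the edgeR fit of all libraries and under other settings. The fit of all libraries with a term for the replicate number is not drawn, and its counts are given in the closing section. Rises number 4 to 13 throughout, whereas falls run from 0 to 13, with 13 without control replicate 1 and 9 without control replicate 2.

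The 2 libraries of a group differed along with exon length, taken over all exons of a gene. Across the 40 members, the ratio of replicate 1 to replicate 2 had a Spearman correlation with exon length of −0.82 in the IRF2 siRNA group and −0.82 in the control group, where all genes tested gave −0.35 and −0.48. The points share their libraries, so these are descriptions. Short genes were higher in replicate 1 of both groups, as for Ifi27l2a, with 463 bases of exon, Ifitm3 and Bst2. Long genes were lower there, and Rnf213, with 16888 bases, and Helz2, with 11529, were the furthest apart between controls, with log2 ratios of −0.81 and −0.77. The median size of the replicate difference was 0.11 (log2) in the IRF2 siRNA group and 0.26 in the control group over the members. The fold change between siRNA groups had a correlation with exon length of −0.12 across members. With each library's trend along exon length removed, a setting added after the data were seen, edgeR called 11 members higher and 6 lower, and 1.28% and 2.94% of all genes. The added rises were Bst2, Herc6, Usp18 and Xaf1, and the falls were Helz2, Ifi27l2a, Ifi44, Isg20, Phf11d and Tor3a.

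**Figure D4:**
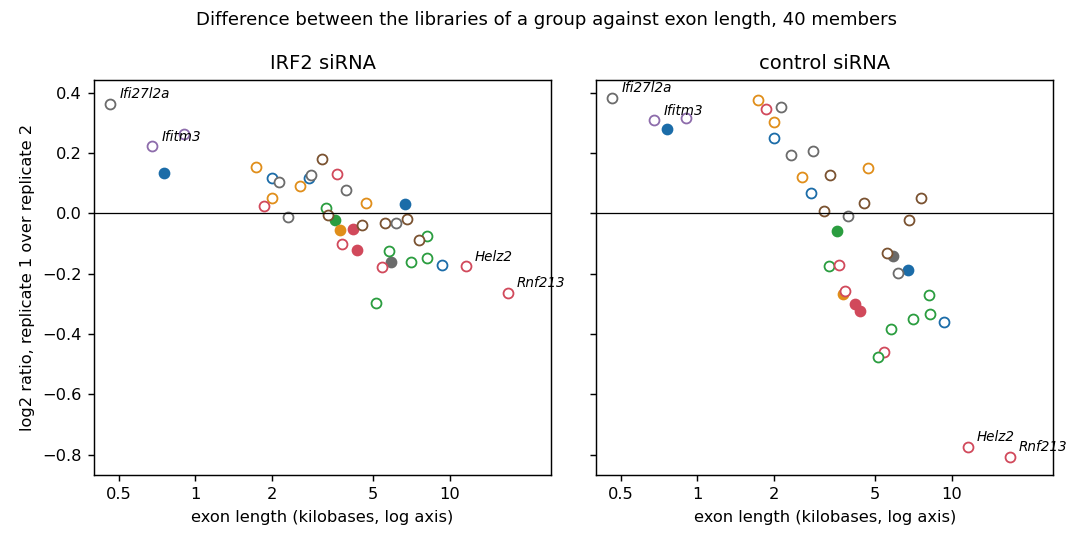
Log2 ratio of replicate 1 to replicate 2 (vertical axis) against exon length in kilobases (horizontal log axis) for the 40 genes, with IRF2 siRNA on the left and control siRNA on the right, colours for role groups and filled points for genes that rose. Both panels slope downward, and the control panel reaches −0.81 at Rnf213.

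Log2 fold changes above and below 0 were found among members of high and of low control level. The members of lowest level, Tmem140, Herc6 and Mx2, were above 0, and the next ones, Isg20 and Helz2, had −0.71 and −0.89. Levels per length, in CPM per kilobase of exon, averaged from 4.06 for Tmem140 to 1391 for Ifitm3 with control siRNA. The fold change had a Spearman correlation of −0.05 with this level across the 40 members, and of 0.02 and −0.09 when the level came from 1 control library and the fold change from the other. Of the 20 members with the higher levels, 3 rose and 8 had a log2 fold change above 0, and of the 20 with the lower levels, 4 rose and 10 were above 0. The most abundant members by this scale, Ifitm3, Ifi27l2a, Lgals3bp and Bst2, included none that was called. The order of the levels was largely kept, with a rank correlation of 0.90 between the groups, beside 0.99 over all genes tested. Rsad2 stood at 147 CPM per kilobase and rank 6 with IRF2 siRNA, against 49.5 and rank 16 with control siRNA. Cmpk2 held rank 12 with IRF2 siRNA and rank 26 with control siRNA, while Isg15 held rank 7 in both.

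**Figure D5:**
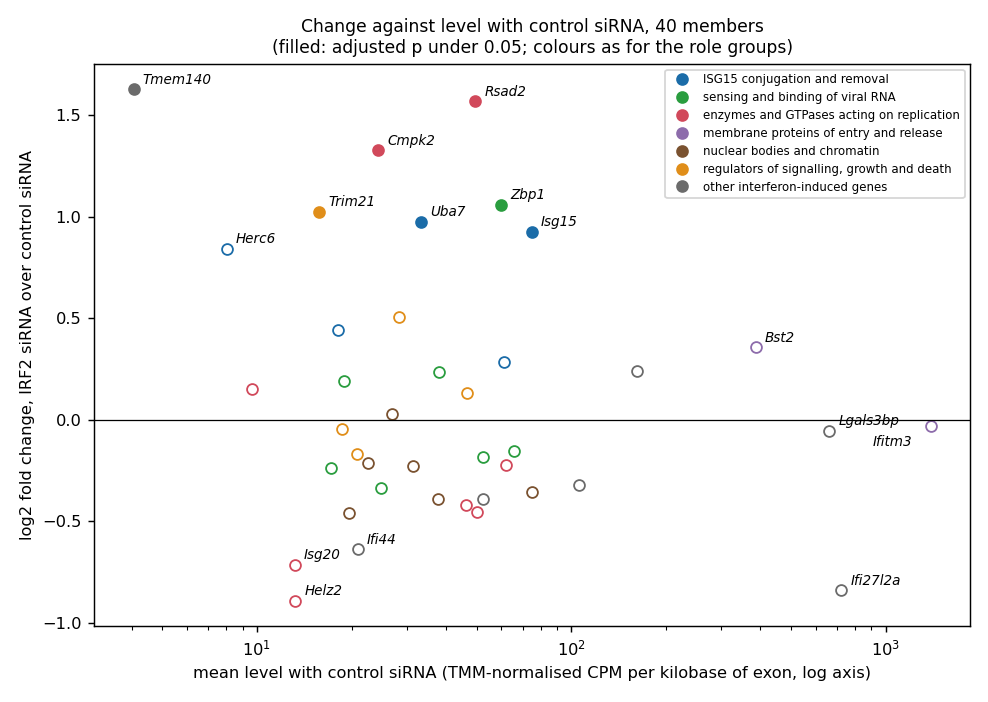
Log2 fold change (vertical axis) against the mean level with control siRNA in CPM per kilobase of exon (horizontal log axis) for the 40 genes, with filled points for those that rose. Rises lie between 4.06 and 75.0 CPM per kilobase, where genes with negative values lie too.

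None of the signalling genes tested upstream of these members passed, beside 1.79% of all genes tested in either direction. At that share a list of 11 to 28 genes may well hold no call. No gene for an interferon ligand was expressed enough to test: 10 of 12 had no read and none had more than 2 reads in any library. Of 11 receptor and JAK-STAT genes tested, none passed, and the smallest p was that of Stat2, with 232 and 252 CPM in IRF2 siRNA libraries, against 354 and 435 CPM in control libraries. Stat2, a transcription factor of the interferon response, differed by −0.70 on the log2 scale (adjusted p = 0.067 in edgeR). Of 12 feedback inhibitors none passed, Stat3 having the smallest p, with a log2 fold change of 0.53, and of 28 genes that signal from RNA and DNA sensors none passed, the smallest p being that of Irf7, with a log2 fold change of −0.39.

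Among 9 partners of Zbp1 in necroptosis and cell death, Mlkl, the protein that ruptures the membrane in necroptosis, fell while Zbp1 rose. Mlkl had 12.2 and 11.9 CPM with IRF2 siRNA, against 23.6 and 24.0 CPM with control siRNA, with an adjusted p = 0.0163. in edgeR Of 12 genes of the eIF2 kinase arm around PKR none passed, the smallest p being that of Atf3 with −0.68 and an adjusted p = 0.0668. in edgeR Of 18 SUMO and nuclear body partners none passed, with Sumo2 at −0.61. Of 17 paralogs of members tested, Phf11a alone passed. Interferon-stimulated genes of the large families had 17 of 52 that rose and 5 that fell, with Gbp2, Gbp3 and Gbp4 at log2 fold changes of 3.64, 2.76 and 3.92, and a median of 0.21, beside −0.05 for the 40 members. Whether the families and the 40 members differ was not tested.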

How the data were processed

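RNA-seq libraries of macrophages, 2 per siRNA group, were analysed from the table of raw counts per gene that the authors deposited. Per the submitters' processing notes, the tools were bcl2fastq 2.18.0.12, STAR 2.5.2b, HTSeq 0.6.0 and DESeq2, with mm10. The annotation release and the use of strand were not given in the sources used here. The 5 summary rows that name no gene were left out, which held 23.1% to 24.4% of the column totals. Reads that fit several places were not counted, which lowers genes with close copies.

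Counts were fitted for all genes in R 4.3.3 with edgeR 4.0.16: filterByExpr at a minimum count of 10 and total of 15, TMM, estimateDisp, glmQLFit and glmQLFTest on the siRNA group, with Benjamini-Hochberg adjustment over 13495 genes and a threshold of 0.05. The fit was tested on simulated data. A standard error is the size of the log2 fold change over the root of the F statistic. Symbols, places, exon lengths and overlaps were taken from the GENCODE M21 annotation of GRCm38 (mm10), which matched 48435 IDs. DESeq2 1.42.0 and voom in limma 3.58.1 were alternatives, with other scalings, filters, thresholds and left-out libraries. Replicates differed by more than sampling noise, with a chi-square per degree of freedom of 6.85 for IRF2 siRNA and 32.5 for control siRNA.

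The members and lists were chosen with earlier results of these data known. Values in every library are given for called members and for the 8 highest and 8 lowest log2 fold changes, and others by group. From each pathway list up to 3 called genes, or the gene with the smallest p, are named. Levels of Ddx58, Bst2, Ifitm3, Usp18, Ube2l6 and Xaf1 in each library, and the paralogs of Ifitm3 and Phf11d, were added after values were seen.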

Additional observations from a re-analysis of the deposited data

How the results depend on the processing

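All 7 rises kept their direction under the 12 other fits, and 4 of them (Tmem140, Rsad2, Cmpk2 and Zbp1) also passed in each. The count of members that rose was 4 without a filter on low counts, where Isg15, Trim21 and Uba7 did not pass, beside 0.134% of all genes. It was 4 at an adjusted p under 0.01, beside 0.193%, and 11 with the correction for exon length, beside 1.28%. Among 26 members whose exons overlap no other gene it was 5, beside 0.511%. It ran from 7 to 13 with a library left out. The count that fell was 4 with the DESeq2 Wald test, beside 2.27% of all genes, 6 with the correction for exon length, beside 2.94%, and 1 to 13 with a library left out. The cause of these shifts was not tested, except that no filter raised the genes tested to 23133. When a control library was left out, the shares of all genes called higher and lower were also larger than with all libraries. The members' median log2 fold change ran from −0.092 to 0.0468 with a library left out. That of Rnf213 ran from −0.7658 to 0.0383, above 0 without control replicate 2. Correlation of change with level was −0.21 with CPM in place of CPM per kilobase.

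Same-numbered libraries deviated together, with a correlation of 0.37 across genes, but the labels name no pairing and there are only 2 pairs. With the replicate block, 12 members were higher and 12 lower, beside 3.73% and 7.54% of all genes. Of the 159 pathway genes tested, 29 were higher and 27 lower in that fit.

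Over the pathway lists together, 17 of 159 genes tested rose and 7 fell, beside 0.511% and 1.27% of all genes. The numbers were 11 and 1 without a filter, beside 0.134% and 0.177% of all genes. At 0.01 they were 11 and 2, beside 0.193% and 0.178%. Falls numbered 14 with DESeq2 and 16 with the length correction, beside 2.27% and 2.94% of all genes. With a library left out, 14 to 32 rose and 7 to 25 fell. The largest of these left-out counts came from fits without a control library, where more of all genes were called too. The number of libraries limits precision, and the effect of depth was not tested.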
